A study of Mus musculus with 15 samples.

Results

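The Cyp2c genes encode a subfamily of cytochrome P450 enzymes that is abundant in hepatocytes. The genes Cyp2c29, Cyp2c37, Cyp2c38, Cyp2c39, Cyp2c40, Cyp2c44, Cyp2c50, Cyp2c54, Cyp2c55 and Cyp2c70 are described here, as 10 of the 37991 genes in the count table. They were chosen by name, with values of these same libraries in view. Their levels and differences are therefore a description and carry no p-value. All 10 passed the filter on low counts, which left 14258 genes for testing, and another 5 genes of the annotation carry a Cyp2c name.

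The study sequenced messenger RNA from whole liver to ask how age and loss of ribosomal S6 kinase 1 (S6K1, encoded by Rps6kb1) change gene expression. The mice were female, of the C57BL/6 strain, born to parents heterozygous for S6K1 and kept on chow. The 15 libraries were 5 from young S6K1 WT mice of 90 days (young WT), 5 from old S6K1 WT mice of 600 days (old WT) and 5 from old S6K1 KO mice of 600 days (old KO). S6K1 was deleted in the whole body, so that effects arising in liver cells cannot be told apart from effects arising elsewhere. There was no young KO group, so a genotype difference could be read at 600 days only, and the comparison of old KO with young WT differs in both age and genotype. The total count per library lay between 21801754 and 38065359. Rps6kb1 stood at 15.2 to 20.8 CPM (counts per 1000000 counts of the library, after TMM scaling) in old KO and at 33.3 to 45.4 CPM in both WT groups. The female-specific Xist stood between 773 and 1267 CPM, and Ddx3y, a gene of the Y chromosome, had no count in any library. Alb, which encodes the hepatocyte product albumin, stood between 59988 and 118249 CPM in the 15 libraries.

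Cytochrome P450 enzymes carry heme, sit in the membrane of the endoplasmic reticulum and take electrons from P450 oxidoreductase (Por) and cytochrome b5. Enzymes of the Cyp2c subfamily oxidize drugs and steroids and turn arachidonic acid into epoxides and hydroxylated products, while single members act on retinoic acid or on bile acids. Their transcription in hepatocytes is known to depend on HNF4A and on the xenobiotic receptors CAR (Nr1i3) and PXR (Nr1i2), and several members are known to differ between male and female liver.

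The 10 genes did not move as a block. In old WT compared with young WT, Cyp2c54 was 10.2-fold lower and Cyp2c40 1.63-fold lower, whereas Cyp2c29 was 1.73-fold higher and Cyp2c55, a gene of very low level, 2.83-fold higher. In old KO compared with old WT all 10 fitted differences were positive, with a median of 0.53 on the log2 scale. The median of all tested genes was 0.0008, and 24 of 26 hepatocyte markers also had a positive difference. Cyp2c54 (10.3-fold) and Cyp2c40 (1.57-fold) passed the threshold applied to all genes, as did 0.533% of all tested genes. Among fits that each left out a library, the number of the 10 that passed ranged from 0 to 2. The small differences of Cyp2c38 and Cyp2c55 turned negative in some of these fits. The old KO means of Cyp2c54 and Cyp2c40 were near those of young WT. Members with higher means in old WT had still higher means in old KO. The comparisons share libraries (each group enters 2 of the 3), so a chance low or high value in a shared group moves both, and their values are given side by side only. In RNA from a whole tissue, fewer cells that express a gene and less RNA of it per cell cannot be told apart.

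The 10 genes, except Cyp2c44, lie within a cluster of 14 Cyp2c genes on chromosome 19, at chr19:39081509-40261823 in NCBIM37, the build to which the reads were mapped (mm9). The cluster spans 1180315 bases. Cyp2c44 lies on its own at chr19:44079512-44103737, 3817689 bases beyond its end. Within the cluster Cyp2c37 (chr19:40066909-40086738), Cyp2c54 (chr19:40112431-40148301) and Cyp2c50 (chr19:40164178-40188440) are direct neighbours, with Cyp2c54 on the minus strand and the other 2 on the plus strand. Cyp2c40 (chr19:39841561-39887304) is surrounded by Cyp2c67, Cyp2c68 and Cyp2c69, which are not among the 10. No tested gene outside the family lies within the cluster.

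Close relatives share stretches as long as a read, which matters for every value below. Reads were 50 bases long, and a read that matches more than 1 gene can be lost or be given to the wrong one. Over the 45 pairs of the 10 genes, coding sequences were between 62.3% and 96.1% identical, with a median of 75.8%. Cyp2c37 and Cyp2c50 were the closest pair at 96.1%, followed by Cyp2c50 and Cyp2c54 at 95.3% and Cyp2c37 and Cyp2c54 at 95.1%. Of all windows of 50 bases in the annotated transcript, 75% were found in no other Cyp2c transcript for Cyp2c54, 70.8% for Cyp2c37 and 69.3% for Cyp2c50. Cyp2c44, Cyp2c55 and Cyp2c70 were unique in 100% of windows, Cyp2c29 in 99.5%, Cyp2c38 in 92.5% and Cyp2c39 in 88.6%. Cyp2c40 had the lowest share, at 28.0%, with 42.0% of its windows also present in Cyp2c69. Its coding sequence was 97.7% to 98.1% identical to those of Cyp2c67, Cyp2c68 and Cyp2c69, where aligned. How reads with several matches were treated is not given in the sources used here.

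**Figure D1:**
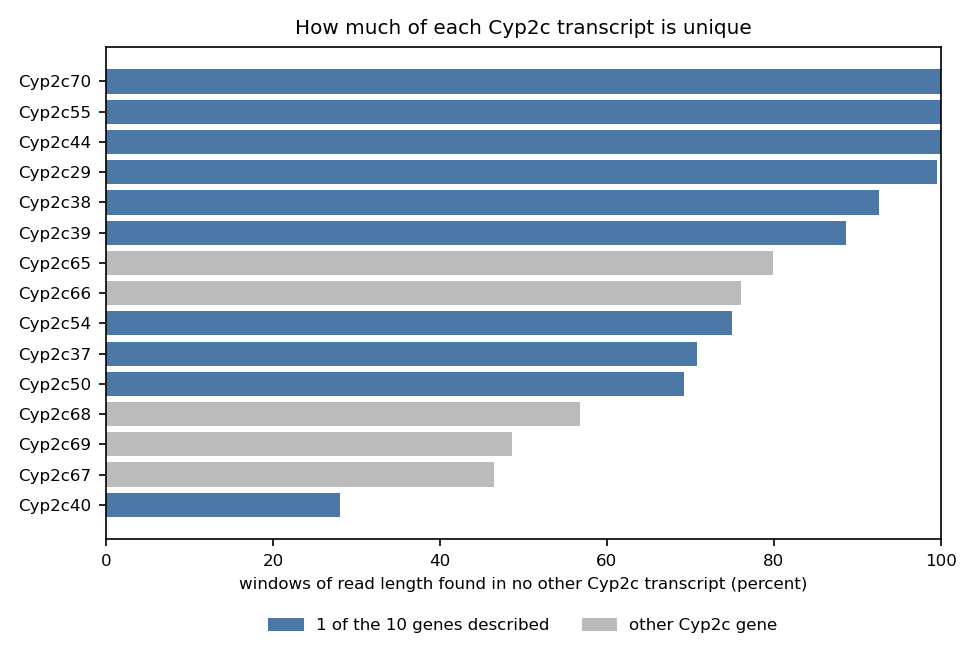
Percent of windows of 50 bases (the read length) in each annotated Cyp2c transcript that occur in no other Cyp2c transcript, for the 10 genes described (blue) and the other 5 (grey). Cyp2c40 stands lowest at 28.0%, and Cyp2c44, Cyp2c55 and Cyp2c70 reach 100%.

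The stretch in which Cyp2c54 differs most from both close relatives is shown, because reads over its differences can tell Cyp2c54 from Cyp2c37 and Cyp2c50, which are identical here. It covers coding bases 847 to 906, counted from the first base of the start codon, and lies within 1 exon of each gene. In NCBIM37 the positions are chr19:40074935-40074994 (plus strand), chr19:40171234-40171293 (plus strand) and chr19:40122049-40122108 (minus strand). Capitals mark the 9 columns at which the 3 sequences are not all the same, and at each of the 9 only Cyp2c54 stands apart.
Cyp2c37: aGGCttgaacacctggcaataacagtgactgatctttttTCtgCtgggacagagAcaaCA
Cyp2c50: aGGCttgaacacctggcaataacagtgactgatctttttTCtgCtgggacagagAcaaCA
Cyp2c54: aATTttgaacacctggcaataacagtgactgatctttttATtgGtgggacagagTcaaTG
Other stretches are shared over more than the length of a read. The longest run of bases shared without a difference was 198 between Cyp2c50 and Cyp2c54, 154 between Cyp2c37 and Cyp2c50 and 123 between Cyp2c37 and Cyp2c54.

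RefSeq promoter sequences of build GRCm38.p6 were matched by symbol for 8 of the 10 genes, with 2 entries for Cyp2c39. Those of Cyp2c44 and Cyp2c54 are not shown. In windows from 250 bases before to 50 after the start, the letters CAAAGT, a part of the HNF4A site, were found on either strand in 7 of the 8 genes, Cyp2c55 being the exception. The same letters occurred in 14.4% of 32851 promoter windows of that length, a set from which a chromosome was left out. AGGTCA, a site of nuclear receptors, was found in 3 of 8 genes (16.3% of these windows) and TATAAA in 6 of 8 (13.6%). Cyp2c39 entered the AGGTCA count only through its entry at chr19:39347096-39347395. It entered the TATAAA count only through that at chr19:39510572-39510871. The promoter window of Cyp2c38 (chr19:39463026-39463325) lies between these 2 entries. The genes are close relatives, so their windows are not independent of one another. AGTTCA given 2 times in the same direction with 4 bases between is a site type of CAR and PXR. TTC and GAA with 3 bases between them are a site type of STAT5. Each was found in 0 of 8 genes, against 0.012% and 8.3% of the 32851 windows. These are matches of letters and no measure of binding. The 130 bases before the start are given for 5 genes with the motif and for Cyp2c55 without it, with CAAAGT in capitals. Their positions in GRCm38.p6 are chr19:39286955-39287084 (plus strand), chr19:39992294-39992423 (plus strand), chr19:40089549-40089678 (plus strand), chr19:39812815-39812944 (minus strand), chr19:40187287-40187416 (minus strand) and chr19:39006889-39007018 (plus strand).
Cyp2c29: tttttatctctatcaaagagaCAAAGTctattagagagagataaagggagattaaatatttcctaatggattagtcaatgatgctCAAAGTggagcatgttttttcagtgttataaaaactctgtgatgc
Cyp2c37: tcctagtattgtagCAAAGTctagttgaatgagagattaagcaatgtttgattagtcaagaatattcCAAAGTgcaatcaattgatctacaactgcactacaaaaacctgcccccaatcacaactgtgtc
Cyp2c50: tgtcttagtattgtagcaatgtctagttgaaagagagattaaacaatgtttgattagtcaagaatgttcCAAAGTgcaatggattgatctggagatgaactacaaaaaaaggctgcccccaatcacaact
Cyp2c40: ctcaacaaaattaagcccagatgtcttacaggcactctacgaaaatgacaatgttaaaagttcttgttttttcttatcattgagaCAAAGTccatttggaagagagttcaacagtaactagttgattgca
Cyp2c70: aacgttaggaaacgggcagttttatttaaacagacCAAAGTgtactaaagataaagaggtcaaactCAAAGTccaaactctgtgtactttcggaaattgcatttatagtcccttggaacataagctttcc
Cyp2c55: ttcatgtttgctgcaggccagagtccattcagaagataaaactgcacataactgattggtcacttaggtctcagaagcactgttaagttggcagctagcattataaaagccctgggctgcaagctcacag
All matches shown are on the strand of the gene, and Cyp2c37 held 1 more, 184 bases before its start.

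Levels were first compared between the genes per length, as RPKM (CPM divided by the length of the annotated exons in kilobases). Cyp2c29 was highest in every group, at 371 ± 73.9 RPKM in young WT, 641 ± 124 in old WT and 783 ± 145 in old KO (SD, n = 5 each). Cyp2c37 came next, at 290 ± 86.4, 436 ± 191 and 575 ± 54.8 RPKM, and its libraries overlapped with those of Cyp2c29 in each group. In young WT the order went on with Cyp2c50 (157 ± 45.3), Cyp2c54 (108 ± 41.0), Cyp2c44 (89.6 ± 15.2), Cyp2c70 (87.7 ± 36.7), Cyp2c38 (68.7 ± 12.0) and Cyp2c40 (63.5 ± 10.1 RPKM). Each of these overlapped with its neighbour in that order. Cyp2c39 at 11 ± 3.20 RPKM and Cyp2c55 at 0.353 ± 0.109 RPKM lay apart below.

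The places of Cyp2c54 and Cyp2c70 in this order differed between the groups. Cyp2c54 ranked 4 of 10 in young WT, 9 in old WT at 10.6 ± 6.67 RPKM, where it overlapped with Cyp2c39, and 6 in old KO at 109 ± 104 RPKM. Cyp2c70 ranked 6 in young WT and 3 in both old groups, at 140 ± 33.9 RPKM in old WT and 265 ± 103 in old KO. The exon unions of Cyp2c50 (2918 bases) and Cyp2c38 (2869 bases) are the longest of the 10. With the same CPM divided by the coding length in kilobases instead, Cyp2c38 in young WT stood at 134 against 130 for Cyp2c54. Cyp2c50 then ranked 3 in all 3 groups. That CPM holds reads over all exons, and reads of coding sequence alone were not counted.

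The largest differences with age and with genotype belonged to Cyp2c54, which encodes an epoxygenase of arachidonic and linoleic acid. Its levels were 128, 155, 237, 297 and 142 CPM in young WT 1, 2, 3, 4 and 6. In old WT 1, 4, 5, 7 and 10 they were 12.3, 25.6, 36.2, 9.90 and 9.48 CPM. In old KO 1, 2, 4, 5 and 6 they were 50.6, 227, 74.0, 497 and 113 CPM. Every old WT library lay below every library of the other groups, and the old KO libraries were spread around the young WT range, with 1 above it and 3 below it. The fitted log2 fold change was -3.35 (SE 0.58) in old WT against young WT, 3.36 (SE 0.58) in old KO against old WT and 0.01 (SE 0.53) in old KO against young WT. The old KO libraries differed among themselves by nearly the whole of this effect, with a coefficient of variation of 95.4% against 37.8% in young WT and 63.1% in old WT. Without old KO 5, the highest library, the difference from old WT was 2.62 and that from young WT -0.72 on the log2 scale.

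Cyp2c50, whose enzyme also makes epoxides of these fatty acids, went the same way with a smaller size. Its levels were 297, 379, 555, 624 and 430 CPM in young WT, in the library order given above. They were 297, 430, 450, 170 and 121 CPM in old WT and 331, 634, 443, 1091 and 389 CPM in old KO. The 3 groups overlapped, and old KO 5 was again the highest of the 15 libraries. The log2 fold changes were -0.64 (SE 0.37), 0.98 (SE 0.37) and 0.34 (SE 0.37) for the age, the genotype and the combined comparison, and none passed the threshold. Without old KO 5 the genotype difference was 0.61.

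Cyp2c37, the remaining one of the near-identical neighbours and a hydroxylase of arachidonic acid, did not share the lower level in old WT. Its levels were 340, 471, 586, 767 and 496 CPM in young WT and 870, 1206, 1016, 325 and 578 CPM in old WT. In old KO they were 964, 1034, 1202, 1108 and 969 CPM. Old WT 7 lay below the young range, old WT 10 within it and the other 3 above it, while all 5 old KO libraries lay above every young WT library. The log2 fold changes were 0.59 (SE 0.27) with age, 0.40 (SE 0.27) with genotype and 0.99 (SE 0.27) in old KO against young WT. The fitted age difference was therefore negative for Cyp2c54 and Cyp2c50 and positive for Cyp2c37, while 21.2% of the windows of Cyp2c50 are shared with Cyp2c37.

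Cyp2c29, the most abundant member and a maker of arachidonic acid epoxides, was higher in both old groups. Its levels were 585, 721, 776, 928 and 588 CPM in young WT and 1168, 1549, 1392, 914 and 1195 CPM in old WT. In old KO they were 1836, 1463, 1624, 1592 and 1076 CPM. Old WT 7 alone reached into the young range, at 914 against a young maximum of 928 CPM. All old KO libraries lay above the young WT libraries and overlapped with old WT. The log2 fold changes were 0.79 (SE 0.17), 0.29 (SE 0.17) and 1.08 (SE 0.17).

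Cyp2c38 and Cyp2c39, a neighbouring pair with 94.2% identical coding sequences, differed little with age. Cyp2c38 was at 197 ± 34.4 CPM in young WT, 242 ± 70.5 in old WT and 252 ± 32.2 in old KO (SD, n = 5), with log2 fold changes of 0.30, 0.05 and 0.35 (SE 0.18 each). Cyp2c39, which encodes a retinoic acid hydroxylase, was at 15.2, 21.6, 27.3, 22.8 and 13.1 CPM in young WT, at 15.4, 22.2, 19.9, 19 and 31.2 CPM in old WT and at 42.5, 40.2, 34.0, 23.6 and 20.2 CPM in old KO. Old KO 1, 2 and 4 lay above all libraries of the other groups, and old KO 5 and 6 lay among them. On the log2 scale Cyp2c39 differed by 0.10, 0.58 and 0.68 (SE 0.24 each). The last of these passed the threshold in the full fit but in 5 of 15 fits that left out a library.

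Cyp2c40, which encodes a hydroxylase of arachidonic acid, varied little within groups, with coefficients of variation of 15.9%, 11.2% and 10.1% in young WT, old WT and old KO. Its levels were 109, 113, 125, 142 and 158 CPM in young WT, 64.9, 80.3, 83.2, 80.2 and 88.9 CPM in old WT and 137, 127, 105, 134 and 120 CPM in old KO. All 5 old WT libraries lay below all libraries of both other groups, which overlapped with each other. Its log2 fold changes were -0.70 (SE 0.11), 0.65 (SE 0.11) and -0.05 (SE 0.11). Since 28.0% of its windows are its own, the values of its relatives stand beside it. Cyp2c67 was at 110 ± 32.8, 79.5 ± 11 and 101 ± 29.0 CPM, Cyp2c68 at 261, 269 and 301 CPM and Cyp2c69 at 298, 366 and 474 CPM in young WT, old WT and old KO. With age Cyp2c67 differed by -0.47 (SE 0.20, edgeR adjusted p = 0.115), Cyp2c68 by 0.04 (adjusted p = 0.844) and Cyp2c69 by 0.30 (adjusted p = 0.443). As with Cyp2c40, every old WT library of Cyp2c67 (88.7 CPM at most) lay below every young WT library (89.8 CPM at least). The old KO libraries of Cyp2c67 overlapped with both WT groups, and Cyp2c68 and Cyp2c69 overlapped in all comparisons. Between old KO and old WT Cyp2c67, Cyp2c68 and Cyp2c69 differed by 0.35 (edgeR adjusted p = 0.533), 0.17 (0.642) and 0.37 (0.620) on the log2 scale. What reads of these genes contributed to Cyp2c40 was not tested. The last 2 genes of the family were at or near 0: Cyp2c66 had no count in any library and Cyp2c65 had 1 count in 1 young WT and in 1 old KO library.

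Cyp2c44, the gene outside the cluster and a maker of arachidonic acid epoxides, was at 189, 152, 154, 222 and 163 CPM in young WT. It was at 172, 128, 202, 202 and 102 CPM in old WT and at 193, 193, 239, 319 and 185 CPM in old KO. Old KO 4 and old KO 5 lay above every other library, and the other old KO libraries lay within the ranges of both WT groups. On the log2 scale the differences were -0.13, 0.49 and 0.36 (SE 0.19 each), and none passed the threshold.

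Cyp2c55 was the least abundant member. Its levels were 0.632, 0.763, 0.554, 1.05 and 0.517 CPM in young WT, 0.937, 2.42, 3.01, 2.71 and 0.992 CPM in old WT and 5.17, 1.67, 2.44, 2.89 and 0.603 CPM in old KO. These values rest on 113, 300 and 323 counts summed over the 5 libraries of each group. Old WT 4, 5 and 7 and all old KO libraries but old KO 6 lay above every young library. Its log2 fold changes were 1.5 (SE 0.47), 0.35 (SE 0.43) and 1.85 (SE 0.47). The age difference passed the threshold in 8 of 15 fits that each left out a library, and did not pass by limma voom or with the replicate block.

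Cyp2c70, whose enzyme hydroxylates bile acids to form muricholic acids in mice, had higher means in old WT than in young WT and higher still in old KO. Its levels were 135, 167, 221, 266 and 79.4 CPM in young WT and 213, 325, 256, 370 and 225 CPM in old WT. In old KO they were 811, 467, 426, 636 and 284 CPM. Old WT overlapped with both other groups, whereas every old KO library lay above every young WT library. On the log2 scale the differences were 0.68 (SE 0.30), 0.92 (SE 0.30) and 1.59 (SE 0.30), and only the last, old KO against young WT, passed the threshold.

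**Figure D2:**
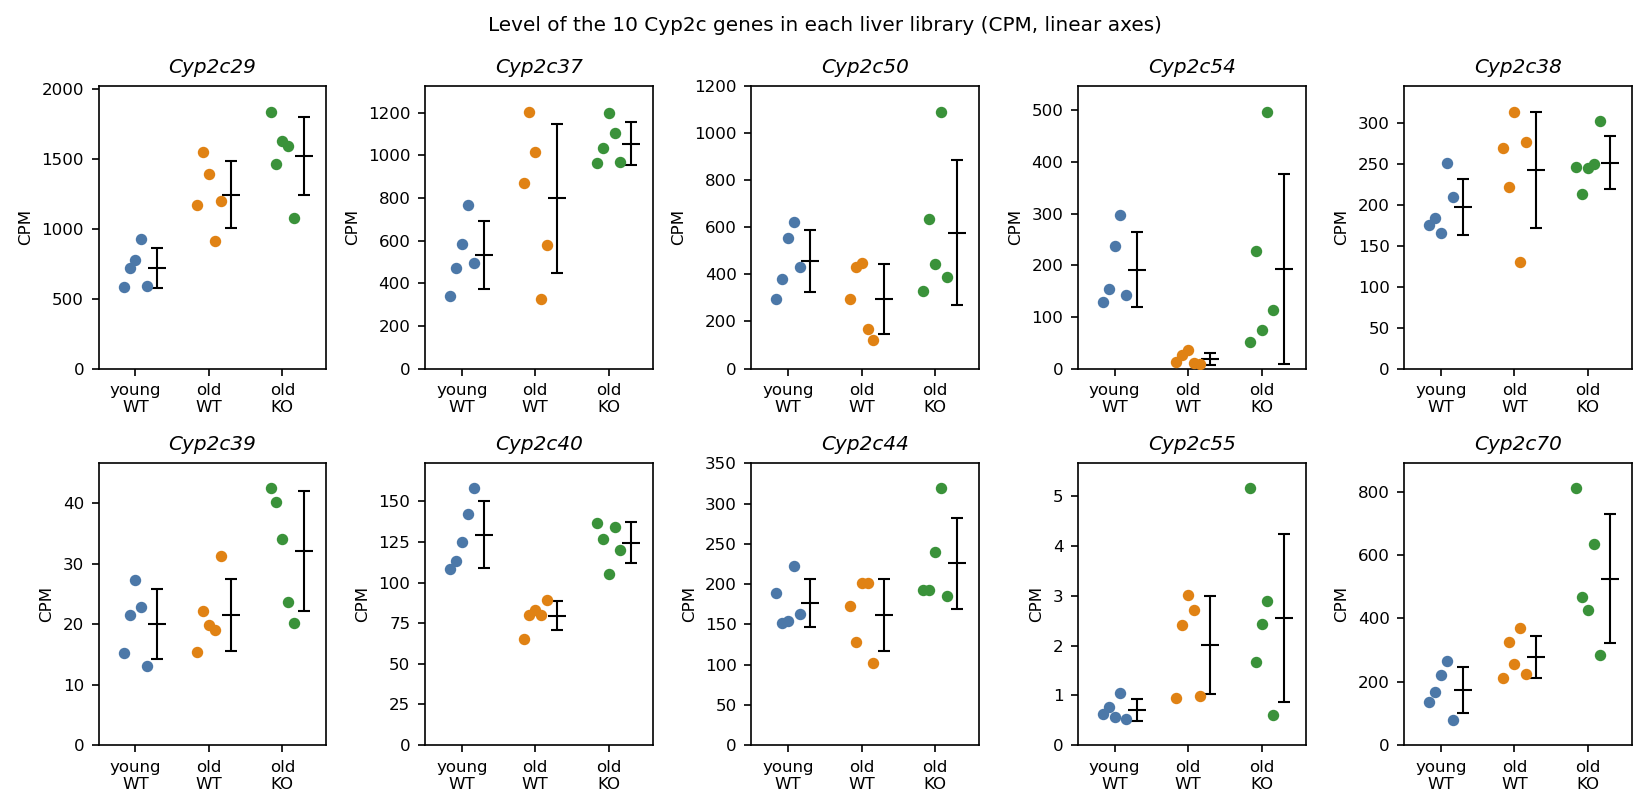
CPM of each of the 10 genes in the 15 libraries on linear axes from 0, with the mean and SD of each group in black (n = 5). Old WT libraries of Cyp2c54 (9.48 to 36.2 CPM) and Cyp2c40 (64.9 to 88.9 CPM) lie below both other groups, and old KO 5 is the highest point for Cyp2c54 (497 CPM) and Cyp2c50 (1091 CPM).

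Counted over the 10 genes, 4 passed the adjusted threshold in old WT against young WT, with Cyp2c29 and Cyp2c55 higher and Cyp2c40 and Cyp2c54 lower. Of all tested genes 18.8% passed in that comparison, 9.92% as higher and 8.91% as lower. In old KO against old WT 2 passed, both higher, where 0.533% of all tested genes passed in either direction and 0.112% as higher. In old KO against young WT 5 passed, all higher (Cyp2c29, Cyp2c37, Cyp2c39, Cyp2c55 and Cyp2c70), where 23.3% of all tested genes passed and 12% as higher. Nothing is read from these counts, since the same libraries were known when the genes were chosen. Groups that did not overlap were found for 2 of the 10 genes with age, both lower (11.4% of all tested genes, 5.67% as lower), for 2 with genotype, both higher (3.2%, and 1.12% as higher), and for 3 in the combined comparison, all higher (13.9%, and 7.32% as higher). The median log2 fold change of the 10 was 0.20, 0.53 and 0.52, and that of all tested genes 0.01, 0.00 and -0.01.

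The count of 2 in old KO against old WT depended on single libraries. It was 0 without old WT 1, without old WT 4 or without old KO 2, and 1 without old KO 5 or without old KO 6. The differences themselves kept their size there: without old WT 1, that of Cyp2c54 was 3.24 and that of Cyp2c40 0.58, without old WT 4 they were 3.49 and 0.65, and without old KO 2 they were 3.29 and 0.63. Without old KO 5 Cyp2c40 was at 0.61, and without old KO 6 at 0.66.

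**Figure D3:**
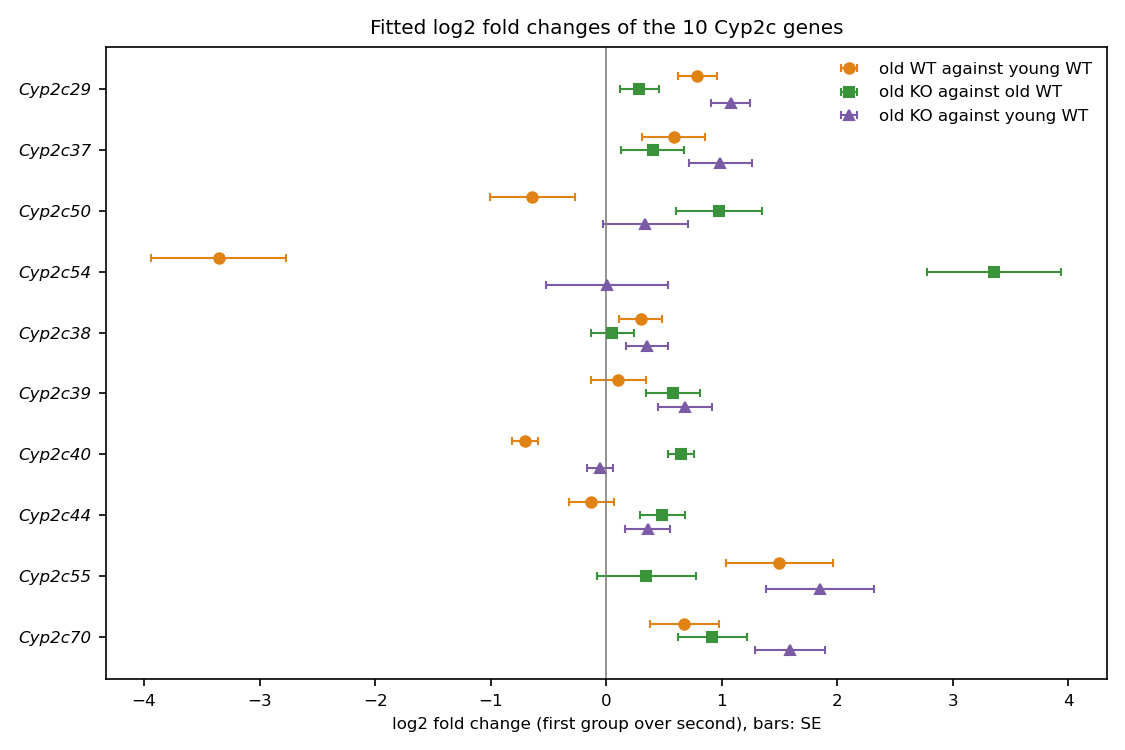
Fitted log2 fold change with SE of each of the 10 genes in the 3 comparisons, which share libraries. All 10 squares (old KO against old WT) lie above 0, between 0.05 and 3.36, and the circles (old WT against young WT) range from -3.35 to 1.5.

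Summed over the 10 genes, the level was 2597 ± 605 CPM in young WT, 3139 ± 747 in old WT and 4505 ± 782 in old KO (SD, n = 5). Libraries ranged over 1973 to 3522, 2222 to 3990 and 3460 to 5654 CPM, so that old KO overlapped with old WT and in 1 library (old KO 6) with young WT. This corresponded to 0.257%, 0.324% and 0.441% of all counts. Without Cyp2c29 the sums were 1878, 1896 and 2987 CPM, so that old KO remained highest and the WT groups were close to each other.

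The makeup of the sum differed between the groups. Cyp2c29 supplied 27.9 ± 2.06% of it in young WT, 40.0 ± 3.41% in old WT and 33.8 ± 4.61% in old KO. Cyp2c54 supplied 7.20 ± 1.08%, 0.562 ± 0.247% and 4.0 ± 3.11%, and Cyp2c50 17.4 ± 1.86%, 8.92 ± 2.88% and 12.4 ± 4.62%. The share of Cyp2c40 was 5.13 ± 1.15% in young WT, 2.66 ± 0.768% in old WT and 2.82 ± 0.450% in old KO. In old KO its mean level was near that of young WT and the sum was larger. Cyp2c70 supplied 6.55 ± 1.75%, 9.41 ± 4.11% and 11.5 ± 3.60%.

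**Figure D4:**
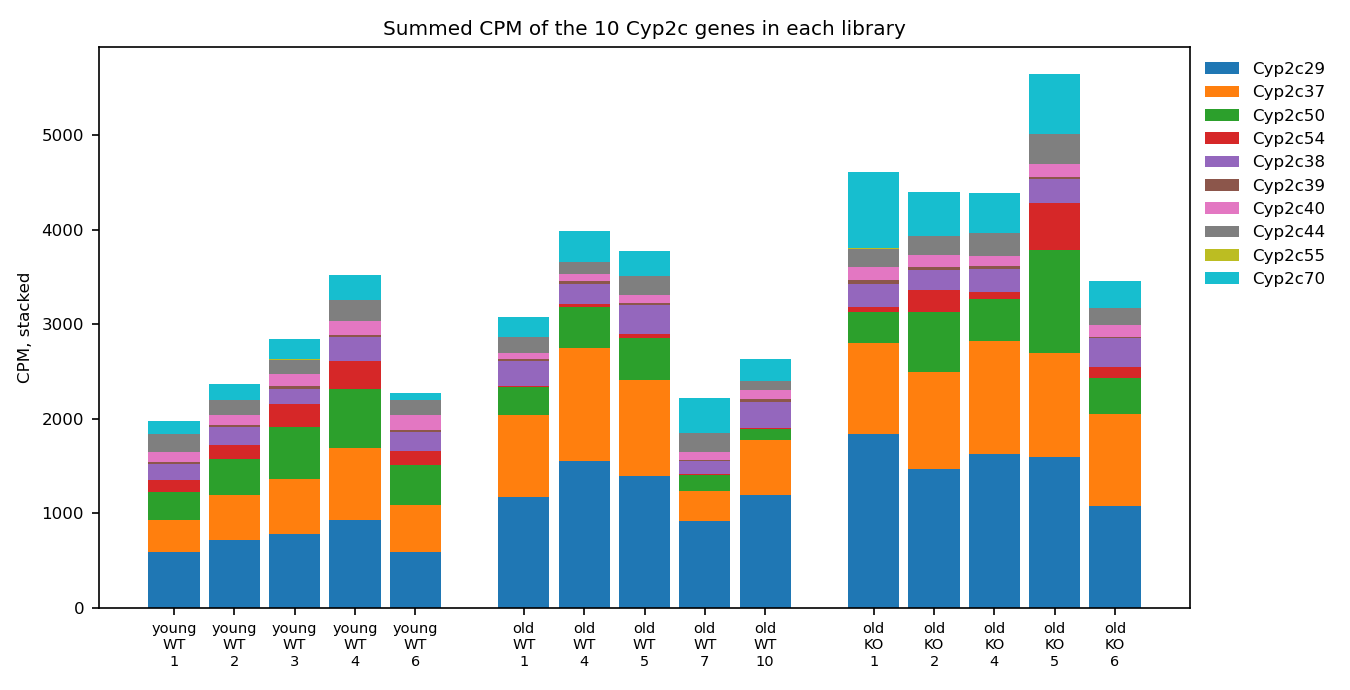
CPM of the 10 genes stacked for each of the 15 libraries, with the library number under the group name. The 5 sums of old KO lie between 3460 and 5654 CPM and those of old WT between 2222 and 3990 CPM, and the red segment of Cyp2c54 is thin in all old WT libraries.

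Within groups, some libraries were high or low for most of the genes at once. Young WT 4 lay above its group mean of log2 CPM for 10 of the 10 genes and old KO 5 for 9, whereas young WT 1 and old KO 6 did so for 1 each. Old WT 4 and old WT 5 were above for 8 each. Taken as deviations from the group means over the 15 libraries, Cyp2c50 and Cyp2c54 varied together most closely (Pearson r = 0.89), followed by Cyp2c29 and Cyp2c37 (0.74), Cyp2c55 and Cyp2c70 (0.73) and Cyp2c37 and Cyp2c50 (0.71). Cyp2c39 and Cyp2c44 varied in opposite directions (r = -0.42). The first and the last of the positive pairs share up to 198 and 154 bases without a difference and may exchange reads. Cyp2c55 and Cyp2c70 share no window of the read length with another Cyp2c transcript. That count did not cover reads that match with differences. What exchanged reads contributed to these correlations was not tested. All values come from the same libraries and share their scaling.

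Outside the family, the 5 genes most like Cyp2c54 over the 15 libraries (Pearson r of log2 CPM) were Sult3a1 (0.88), Gm14391 (0.86), 1600002H07Rik (0.86), Rpl22l1 (0.85) and Cyp2f2 (0.85). Sult3a1, a sulfotransferase that is higher in female than in male mouse liver, ranged from 95.5 to 271 CPM in young WT, from 1.32 to 10.4 CPM in old WT and from 19.1 to 74.5 CPM in old KO. Its differences were -4.80 (SE 0.55, edgeR adjusted p = 0.000108) with age and 3.0 (SE 0.51, adjusted p = 0.0222) with genotype, and its groups did not overlap. Cyp2f2, a P450 of periportal hepatocytes, differed by -0.75 (SE 0.23, edgeR adjusted p = 0.0318) and 0.98 (SE 0.23, adjusted p = 0.0679). Both were picked for likeness to Cyp2c54 over all 15 libraries, with the group differences included. Differences in the same directions therefore follow from the choice and are no separate evidence. By deviations from the group means the nearest were Gm15890 (0.86), Il1rap (0.85), Pcdhb17 (0.83), 1810011O10Rik (0.82) and Tsc22d3 (0.82). For the summed level of the 10 genes the nearest were Ppp1r3b (0.95), Cml1 (0.93), Gm16247 (0.93), Ugt1a6b (0.92) and Hebp1 (0.91), and by deviations Cml1 (0.92), Gm4980 (0.88), Ppp1r3b (0.87), Slc31a1 (0.86) and Tmem204 (0.86).

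The genes next to the family were not all level with age. Beside the cluster, Noc3l (-0.38, edgeR adjusted p = 0.0247) and Pdlim1 (-0.52, adjusted p = 0.0495) were lower in old WT, while Hells, Tbc1d12 and Aldh18a1 did not pass. Next to Cyp2c44, Cpn1 (0.41, adjusted p = 0.0178), Erlin1 (0.91, adjusted p = 0.0124) and Cwf19l1 (0.73, adjusted p = 0.000531) were higher with age, and Dnmbp, Gm10768 and Chuk did not pass. None of these neighbours passed in old KO against old WT, where the adjusted p-values lay between 0.255 and 0.999, whereas Cyp2c54, between Cyp2c37 and Cyp2c50, was the member of largest difference there.

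Genes of proteins that serve Cyp2c enzymes were called with age and, for 1 gene, with genotype. Por fell by 0.88 on the log2 scale in old WT (SE 0.21, edgeR adjusted p = 0.0089), from 594 to 324 CPM, and stood at 346 CPM in old KO (0.10, adjusted p = 0.914). Alas1, the rate-limiting enzyme of heme synthesis, fell by 1.45 with age (adjusted p = 0.00266) and differed by 0.26 between the genotypes (adjusted p = 0.783). Cyb5, which encodes cytochrome b5, was at 730, 846 and 1046 CPM in the 3 groups and passed in old KO against young WT alone (0.52, adjusted p = 0.00542). Of the 17 genes of electron transfer and heme, 4 rose and 3 fell with age and 1 fell with genotype, namely the heme oxygenase gene Hmox1 (-0.85, edgeR adjusted p = 0.0485). It was 1 gene by DESeq2 as well, and 0 by limma voom and with the replicate block. Over all tested genes, 9.92% were called higher and 8.91% lower with age, and 0.533% were called with genotype.

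Transcription factors of Cyp2c genes were measured as well. Nr1i3 was at 297, 284 and 309 CPM, Nr1i2 at 86.3, 78.4 and 78.2 and Hnf4a at 745, 702 and 815 CPM in young WT, old WT and old KO, and none of the 3 passed in any comparison. Of 26 such genes 3 rose and 2 fell with age, where 9.92% of all tested genes were higher and 8.91% lower. The coactivator gene Ppargc1a was among those that fell (-0.98, edgeR adjusted p = 0.0442). With genotype 0 of the 26 passed by edgeR (2 at an unadjusted p under 0.05, and 0 by DESeq2 and by limma voom), against 0.533% of all tested genes. Of 29 target genes of CAR and PXR 9 rose and 3 fell with age and 0 passed with genotype by edgeR (7 unadjusted, 2 by DESeq2, 0 by limma voom). Por and Alas1, given above, are counted in this list too. The best known targets of CAR and PXR had lower means in old WT and did not pass with age. Cyp2b10 was at 68.9 and 35.1 CPM and Cyp3a11 at 2862 and 1591 CPM in young WT and old WT. The part of CAR and PXR in the levels of the Cyp2c genes was not tested. Of 14 genes of the growth hormone and STAT5 axis 3 rose and 1 fell with age and 0 passed with genotype by edgeR (1 unadjusted, 0 by DESeq2 and by limma voom), and Stat5b was at 55.4, 67.3 and 69.3 CPM.

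Other enzymes of the same substrates were measured beside the Cyp2c genes. As above, 9.92% of all tested genes were higher and 8.91% lower with age, and 0.533% passed with genotype. Of 23 genes of arachidonic acid oxidation and epoxide hydrolysis 2 rose and 7 fell with age, the largest falls being those of Cyp4a31 (-3.0), Cyp4a32 (-1.88) and Cyp4a14 (-1.27). Ephx2, the soluble epoxide hydrolase that removes the epoxides which Cyp2c enzymes make, was at 1436, 1148 and 1020 CPM, and Ephx1 at 322, 417 and 356 CPM, without a call in any comparison. Of 28 genes of retinoid handling 8 rose and 3 fell with age, with the retinoic acid hydroxylase gene Cyp26a1 at 3.80, 13.9 and 30.3 CPM (1.86 with age, edgeR adjusted p = 0.0277), while Cyp2c39 differed by 0.10 with age. Of 23 genes of bile acid synthesis 5 rose and 4 fell with age. Cyp8b1, the sterol hydroxylase that forms cholic acid, fell by 1.48 (adjusted p = 0.00231) while the difference of Cyp2c70 was 0.68 and did not pass, and Cyp7a1 was at 399, 260 and 292 CPM without a call. In old KO against old WT 0 genes of these 3 lists passed by edgeR or limma voom. At an unadjusted p under 0.05 the counts were 6 for arachidonic acid, 4 for retinoids and 4 for bile acids, and by DESeq2 2, 0 and 2.

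Sex-biased genes of the liver were measured because several Cyp2c genes are known to be among them. The shares of all tested genes were again 9.92% higher and 8.91% lower with age, and 0.533% with genotype. Of 36 female-biased genes 16 rose and 2 fell with age, with a median of 0.95 on the log2 scale, and of 30 male-biased genes 2 rose and 11 fell, with a median of -0.56. In old KO against old WT 1 of the 36 rose (Sult3a1, with 2 of the 36 called by DESeq2, 1 by limma voom and 0 with the replicate block) and 0 of the 30 passed by edgeR or limma voom, with 11 of the 30 at an unadjusted p under 0.05 and 3 by DESeq2. The female-biased A1bg ranged from 11.1 to 278 CPM in young WT, from 1370 to 5094 CPM in old WT and from 86.9 to 2278 CPM in old KO. Its lowest old KO value was that of old KO 5, the library in which Cyp2c54 and Cyp2c50 were highest. The young WT library highest for both, young WT 4, stood at 85.2 CPM of A1bg, with only young WT 6 higher. The old WT library highest for both, old WT 5, stood at 1661 CPM, with only old WT 7 lower. A1bg was picked with its values seen, and a link to these genes was not tested.

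Markers of cell types and of liver zones were measured beside the Cyp2c genes. Their counts stand beside 9.92% of all tested genes higher and 8.91% lower with age, and 0.533% called with genotype. Of 26 hepatocyte markers 2 rose and 5 fell with age and 0 passed in old KO against old WT by edgeR, DESeq2 or limma voom (5 unadjusted), where 24 had a positive difference and the median was 0.21, against 0.53 for the Cyp2c genes. Macrophage markers fell in old KO for 8 of 20 genes by edgeR (11 called by DESeq2, 2 by limma voom and 0 with the replicate block), and their summed level was 245 to 359 CPM there against 395 to 843 CPM in old WT, where 4 of 20 had risen with age. The 8 were C1qa, C1qb, C1qc, Cd14, Cd5l, Cd68, Clec4f and Vsig4, with Cd5l at 103 ± 36.6 CPM in old WT and 37.0 ± 4.70 CPM in old KO (-1.47, edgeR adjusted p = 0.0247). Lymphocyte markers, of which 7 of 19 rose with age and 0 passed with genotype by edgeR, DESeq2 or limma voom (4 unadjusted), summed to 36.0 to 68.7 CPM in old WT and 25.9 to 97.8 CPM in old KO. In old KO against old WT 17 of these 19 had a negative difference and 2 a positive one, with a median of -0.68. Of 17 pericentral markers 1 rose and 4 fell with age, among them Glul (-0.54, edgeR adjusted p = 0.0149), and of 18 periportal markers 2 rose and 3 fell, while 0 of either passed with genotype by edgeR or limma voom (3 and 1 unadjusted, 1 and 1 by DESeq2). Markers of endothelial and stellate cells (1 rose and 5 fell of 18), of bile duct cells (2 rose of 9) and of intestine and pancreas (0 of 3 tested) had 0 calls with genotype by edgeR, DESeq2 or limma voom, and 0 at an unadjusted p under 0.05. The part of these markers in the levels of the Cyp2c genes was not tested.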

How the data were processed

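RNA from flash-frozen whole liver was sequenced as stranded poly(A) libraries with single reads of 50 bases. The authors deposited unnormalized counts of reads for each gene and library. Per the labels and the study's methods they mapped reads to mm9 with TopHat2 2.0.11 and counted them with HTSeq, without pooling. The annotation, the strand setting and the treatment of multiply mapped reads are not given in the sources used here. Reads of near-identical paralogs and of overlapping genes are therefore uncertain.

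Counts were scaled by TMM and filtered with filterByExpr, and a quasi-likelihood model was fitted to the 15 libraries in edgeR 4.0.16 (R 4.3.3) with 3 contrasts. Library totals were 21801754 to 38065359 counts. P-values were adjusted over the 14258 genes by Benjamini-Hochberg with a threshold of 0.05, and SE is the absolute log2 fold change over the root of F. The labels number the livers but do not describe the animals, so p-values measure the spread between these libraries. In a simulation of the genotype contrast the fit was tested on known changes. DESeq2 1.42.0, limma voom (limma 3.58.1), 3 other scalings, 2 other filters, a fit on the 10 libraries of each contrast, a replicate block and leaving out each library were alternatives. Log2 CPM used a prior count of 2.

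The 10 genes, the other gene lists and the motifs were chosen with earlier results of these data known. Named genes were the 10, the other Cyp2c genes, listed genes past the threshold with genotype or of largest change with age, a fixed set of regulators, partners and enzymes, the 5 genes most like Cyp2c54 or the sum, and the 3 nearest tested genes on each side. Not all genes the rule allows are printed, some results are not reported here, and A1bg, Xist, Ddx3y, Alas1 and Ppargc1a were picked with their values seen. Of 406 list entries 397 matched by symbol and 6 by RefSeq synonym. Positions came from GENCODE M1 on NCBIM37, and coding sequences were aligned with Biopython 1.88. Pairs of libraries of a group differed by more than sampling noise, with 19.7 to 128 times the chi-square expected per gene. Protein sequences were not used here.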

Additional observations from a re-analysis of the deposited data

Results flagged for a closer look

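None of the 30 groups of 5 values of the 10 Cyp2c genes, nor their sums, held a library whose gap to the nearest other exceeded 0.71 of the group's range. Among 42 groups examined in this way 2 did, both for Alb, which encodes albumin: young WT 6 was low at 59988 CPM (the next at 94366 CPM, the highest at 102414 CPM), and old WT 7 was high at 114632 CPM (the next at 82037 CPM). Chance alone gives about 1 in 20 such groups. For the Cyp2c genes, young WT 6 was above its group mean of log2 CPM for 2 of the 10 and old WT 7 for 4 of the 10.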

How the results depend on the processing

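The number of Cyp2c genes called with age was 4 in all alternatives except limma voom (3, without Cyp2c55) and 3 to 5 when a library was left out, and with old KO against young WT it was 4 or 5 throughout. With genotype it was 2 in all alternatives except the replicate block (0) and 0 to 2 when a library was left out. Over all genes the count with age was 2685, 899 with the replicate block and 1748 to 3284 with a library left out, and with genotype it was 76, 309 by DESeq2, 23 by limma voom, 121 under total count scaling, 6 with the replicate block and 9 to 108 with a library left out. With the replicate block the 4 held Cyp2c37 (0.97) in place of Cyp2c55 (0.86). Among the fits without a library the lowest age count was that without young WT 1. The genotype count fell by over 1.5 times without old WT 1 (10), 4 (9), 7 (37) or 10 (42), old KO 2 (13), 4 (14), 5 (17) or 6 (13), or young WT 4 (41). Under total count scaling the age calls were 1608 higher and 841 lower (1415 and 1270 under TMM), and the genotype calls 11 higher and 110 lower (16 and 60). Deviations of same-numbered libraries correlated between -0.15 and 0.08, and libraries of different numbers were not compared in this way. The labels do not say whether a replicate number stands for a pair or a batch, so this stays unknown. Young WT 3, old WT 7 and old WT 10 carry a number found in no other group. The replicate block fitted these libraries exactly, so its lower counts rest on fewer libraries than the main fit.

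Small differences changed sign. Cyp2c38 with genotype was -0.0183 under total count scaling, -0.0745 with the replicate block and -0.11 to 0.16 with a library left out. Cyp2c54 in old KO against young WT was -0.41 by limma voom, -0.0059 under upper quartile scaling, -0.0312 under total count scaling, -0.0071 without a filter, -0.60 with the replicate block and -0.72 to 0.25 with a library left out. With a library left out, Cyp2c39 with age lay between -0.0672 and 0.25, Cyp2c44 with age between -0.22 and 7e-04, Cyp2c55 with genotype between -0.0797 and 0.59, and in old KO against young WT Cyp2c40 between -0.11 and 0.0285 and Cyp2c50 between -0.023 and 0.49. The calls of Cyp2c29, Cyp2c40 and Cyp2c54 with age held in all 9 alternatives and all 15 fits without a library. The genotype calls of Cyp2c54 and Cyp2c40 held in 8 of 9 alternatives each, and in 12 and 10 of 15 fits without a library. The causes were not tested. With 5 libraries a group and shared windows within the family, the assignment of reads limits what can be said of single close relatives.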
